A study of Drosophila melanogaster with 4 samples.

Results

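Regions enriched for RNA polymerase II phosphorylated on serine 5 (Ser5P) were examined on the heterochromatin scaffolds and the unplaced sequence of the Drosophila melanogaster genome. They were taken from the list the authors made for the set of replicates, called the combined list here, as every region with a score above 0 on the heterochromatin scaffolds 2LHet, 2RHet, 3LHet, 3RHet, XHet and YHet or on the unplaced sequence U. This gave 244 of the 5074 enriched regions, or 4.81%, and the remaining 4830 lay on 2L, 2R, 3L, 3R, X and 4, called the arms here. Of the 244 regions, 98 were on U and 146 on the 6 scaffolds, called the Het scaffolds here.

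ChIP was done on Kc167, a female cell line of genotype se/e derived from late-stage Drosophila embryos, with an affinity-purified rabbit polyclonal antibody against the Ser5-phosphorylated repeat of the polymerase. The series held 2 ChIP and 2 input libraries, all from untreated cells of this 1 line, and flasks of cells were pooled before fixation. Whether the replicates are separate cultures is not stated in the labels, and their spread may be technical. Input region lists are not analysed here and the lists hold no read counts, so the depth is unknown and there is no matching background level.

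The largest subunit of RNA polymerase II ends in a long tail of repeated heptads, and phosphate on serine 5 of these repeats marks polymerase that has started to transcribe and is near the beginning of the transcribed unit. Heterochromatin is the compact, repeat-rich chromatin around the centromeres and along most of the Y chromosome. It is poor in genes, but some genes sit there and depend on this environment for their expression. The Het scaffolds are parts of it that were assembled, assigned to a chromosome and listed apart from the arms. In the comparisons below, heterochromatin means these scaffolds. The arms are not thereby free of heterochromatin, and how much of it they hold was not measured. U joins pieces that could not be assigned, so neighbours on U need not be neighbours on a chromosome. All positions are those of FlyBase release 5, counted from 1. No gene is named, because the gene table supplied belongs to another release, and no sequence is shown.

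The score is the authors' own value for each region and was taken to be on a log2 scale, where 1 unit is a factor of 2. Which quantities it compares is not given in those sources that were used. Regions of 1 list come from the same libraries and are not replicates, so no test was run across regions. A difference between sets of regions is set against the spread of the 2 replicate lists, and values of the combined list are the authors' values, with no SD.

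Enriched regions were thinner on the heterochromatin and U than on the arms, but the scaffolds differed widely among themselves. In the combined list the 244 regions came to 12.6 per Mb of sequence, against 40.1 per Mb on the arms. The Het scaffolds held 15.7 per Mb and U 9.75 per Mb. XHet, at 44.1 regions per Mb, was the 1 scaffold above the arms, but it is 0.204 Mb long and the value rests on 9 regions. In each replicate list it held 7 regions, or 34.3 per Mb, which is below the arms' 39.1 and 38.6. 3LHet followed with 25.8 per Mb from 66 regions and YHet with 20.2 per Mb from 7 regions. The remaining densities were 16.3 per Mb on 2LHet from 6 regions, 12.8 on 2RHet from 42 regions, and 6.36 on 3RHet from 16 regions. 3RHet and 3LHet are of nearly the same length, 2.52 and 2.56 Mb, so their counts of 16 and 66 can be set side by side directly.

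The replicate lists gave the same order of Het scaffolds, U and arms at a lower level. The Het scaffolds held 11.9 regions per Mb in replicate 1 and 12.2 in replicate 2, a mean of 12 ± 0.229 (SD, n = 2). U held 5.57 and 5.67 per Mb, a mean of 5.62 ± 0.0704 (SD, n = 2). The arms held 39.1 and 38.6 per Mb, a mean of 38.9 ± 0.329 (SD, n = 2). The gaps between these means were many times the replicate SD. The replicate lists fell short of the combined list by a larger share on heterochromatin and U than on the arms: its 244 regions there compare with 166 in replicate 1 and 170 in replicate 2, whereas its 4830 arm regions compare with 4708 and 4652. On U the combined list had 98 regions, and replicates 1 and 2 had 56 and 57. Sequence on which reads could not be placed was not measured, so few regions and few placeable reads cannot be told apart.

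**Figure D1:**
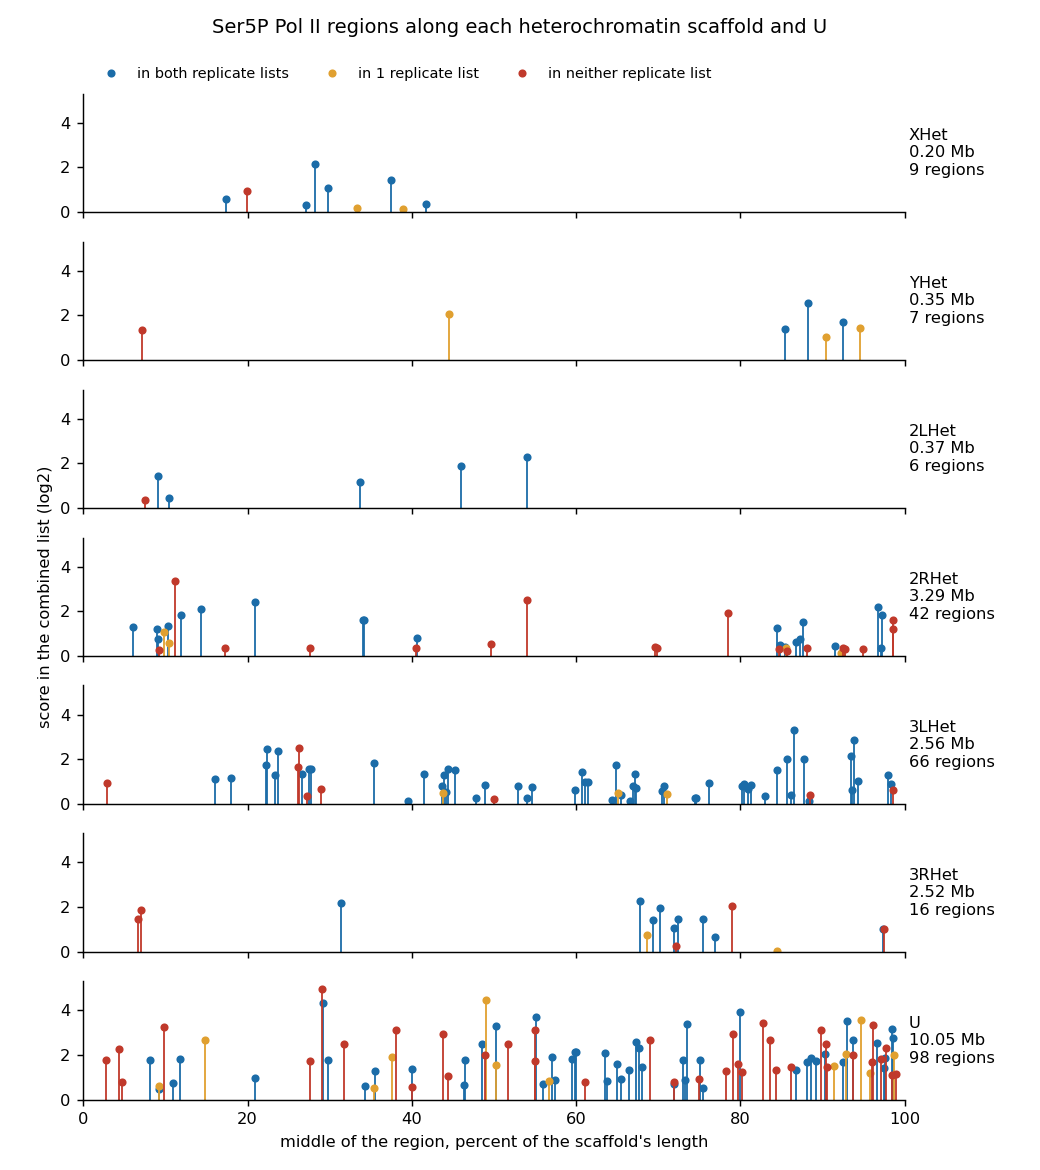
Positions of the 244 combined regions along each sequence, as percent of its length on the horizontal axis, with the score (log2) on the vertical axis. Blue points were overlapped by a region of both replicate lists, orange points by a region of 1 list and red points by neither. The XHet regions all lie between 34548 and 86004, the 98 regions of U are spread over its length, and red and orange points stand among the highest scores of U.

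Scores on the Het scaffolds as a whole ran below those of the arms and scores on U above them. The combined list gave a median of 0.96 on the Het scaffolds (lowest 0.04, highest 3.37), 1.80 on U (lowest 0.49, highest 4.95) and 1.37 on the arms (highest 5.07). In the replicate lists the median of the Het scaffolds was 1.07 and 1.22, a mean of 1.14 ± 0.11 (SD, n = 2). The median of U was 1.85 and 1.83, a mean of 1.84 ± 0.01 (SD, n = 2). That of the arms was 1.46 and 1.5, a mean of 1.48 ± 0.03 (SD, n = 2). The order was thus the same in both replicates. Both differences from the arms exceeded the replicate SD. The scaffolds did not all share the low median, which was 0.56 on XHet, 0.70 on 2RHet and 0.88 on 3LHet in the combined list but 1.30 on 2LHet and 1.45 on both 3RHet and YHet. In replicates 1 and 2, 3RHet had medians of 1.52 and 1.41 and YHet of 1.99 and 1.70, so YHet was above the arms in both. The YHet medians rest on only 4 and 5 regions.

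The lowest and highest scores were divided unevenly between U and the Het scaffolds. A score of at least 3 was given to 16 of 98 regions on U (16.3%), 2 of 146 on the Het scaffolds (1.37%) and 205 of 4830 on the arms (4.24%). The counts on U were 8 and 9 in replicates 1 and 2. Scores below 0.5 were given to 42 regions of the Het scaffolds and 1 region of U. Within the Het scaffolds, the upper quartile of the score was 1.88 on both 3RHet and YHet, 1.57 on 2RHet and 1.08 on XHet. The lowest score of the 244, 0.04, belonged to a region of 3RHet at 2125810 to 2127154.

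Regions on heterochromatin and U were narrower than those on the arms, and 17 of the 18 of at least 5 kb were on the Het scaffolds. The median width in the combined list was 2.21 kb on the Het scaffolds, 2.02 kb on U and 2.78 kb on the arms. The replicate lists gave means of 2.35 ± 0.0654 kb on the Het scaffolds, 2.04 ± 0.0223 kb on U and 2.72 ± 0.0615 kb on the arms (SD, n = 2). A width of at least 5 kb occurred in 17 of 146 regions on the Het scaffolds (11.6%), 1 of 98 on U (1.02%) and 1167 of 4830 on the arms (24.2%). In the replicate lists U had 0 such regions. Narrow regions, below 1.5 kb, made up 21.2% of the Het regions, 21.4% of the U regions and 7.35% of the arm regions in the combined list. Narrow regions were rarer in the replicate lists on every kind of sequence, and again more frequent on heterochromatin and U than on the arms, with means of 8.96% ± 1.10 on the Het scaffolds, 8.85% ± 0.111 on U and 2.78% ± 0.0537 on the arms (SD, n = 2).

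**Figure D2:**
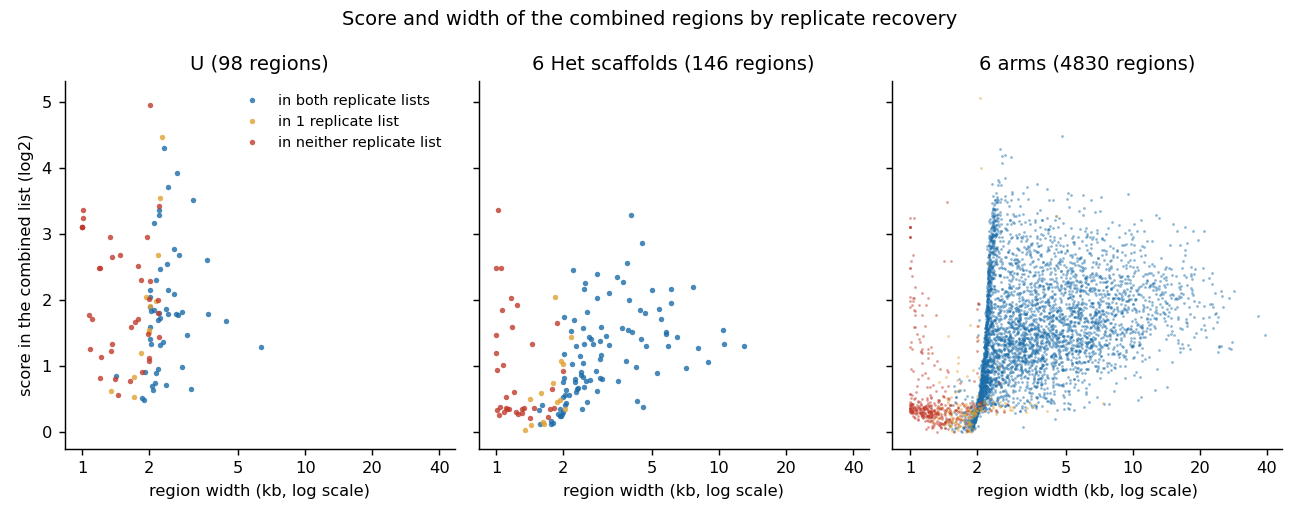
Score (log2) against width (kb, log axis) of the combined regions, in panels for U, the Het scaffolds and the arms, coloured by whether both, 1 or neither of the replicate lists held the region. U regions gather near 2 kb and reach a score of 4.95, while the 17 regions of at least 5 kb on the Het scaffolds score lower.

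The widest regions had moderate scores. On 3LHet the widest, at 591630 to 604514, was 12.9 kb long and scored 1.31. Replicate 1 held it as 1 region with a score of 1.31, and replicate 2 as 2 regions with scores of 1.17 and 1.71. The widest region of 2RHet, at 333034 to 343590, was 10.6 kb long, scored 1.34 and was 1 region in each replicate, scoring 1.29 and 1.39. The only other region of the 244 to reach 10 kb was 3LHet 1129272 to 1139688. On 3RHet the widest region, at 1805960 to 1814834, spanned 8.88 kb and scored 1.07. Each replicate divided it in 2, a stronger and a weaker piece, scoring 1.52 and 0.47 in replicate 1 and 1.39 and 0.45 in replicate 2. The widest of U, at 3562124 to 3568438, was also divided in 2 in each replicate. It spanned 6.32 kb with a combined score of 1.30, and its pieces scored 1.21 and 1.44 in replicate 1 and 1.33 and 1.62 in replicate 2. Of all 244 regions, 9 (3.69%) were divided in at least 1 replicate, against 381 of 4830 on the arms (7.89%). These 2 shares were not compared at like width, and 7.38% of the 244 but 24.2% of the arm regions reached 5 kb.

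The combined regions on heterochromatin and U were found again in the replicate lists much less often than those on the arms. A region was counted as found when an enriched region of the replicate overlapped it by at least 1 bp. Both replicates held 147 of the 244 regions (60.2%), against 4260 of 4830 on the arms (88.2%) and 86.9% of all 5074 regions. Replicate 1 alone held 11, replicate 2 alone held 15, and neither held 71 of the 244 (29.1%). On the arms neither held 384 (7.95%), and over all regions the share was 8.97%. The 3 lists were assumed to share their libraries, so these shares describe the lists and are no independent check of a region.

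Recovery differed between scaffolds. Among the scaffolds with more than 10 regions, 3LHet had the highest share, with 55 of its 66 regions in both replicates (83.3%). 2LHet had 5 of 6 and XHet 6 of 9. 3RHet had 9 of 16 (56.2%), 2RHet 20 of 42 (47.6%) and YHet 3 of 7. On U, 49 of 98 regions were in both replicates (50.0%), 12 in 1 of them and 37 in neither (37.8%). The Het scaffolds together had 98 of 146 in both (67.1%), 14 in 1 and 34 in neither (23.3%).

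On U a high score did not go with recovery. Among arm regions with a score of at least 3, 95.1% were in both replicates, and between 2 and 3 the share was 98.3%. On U the shares were 7 of 16 regions with a score of at least 3 (43.8%), 10 of 23 between 2 and 3 (43.5%), 20 of 39 between 1 and 2 (51.3%) and 11 of 19 between 0.5 and 1 (57.9%). From a score of 0.5 to 3 the Het scaffolds lay between, with 13 of 17 regions between 2 and 3 (76.5%), 41 of 52 between 1 and 2 (78.8%) and 25 of 33 between 0.5 and 1 (75.8%). Below 0.5 they had 18 of 42 (42.9%), against 52.3% on the arms, and the 1 region of U in this band was in both replicates. The U regions found in neither replicate had a median score of 1.81, nearly that of the U regions found in both, 1.80. On the Het scaffolds the corresponding medians were 0.46 and 1.17, and on the arms 0.36 and 1.48. Regions found in neither replicate thus had the lower median score on the Het scaffolds and the arms, and not on U. On the Het scaffolds, recovery was lower below 0.5 and changed little from 0.5 to 3. With 1 region of U below 0.5, U cannot be compared with them in that band.

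**Figure D3:**
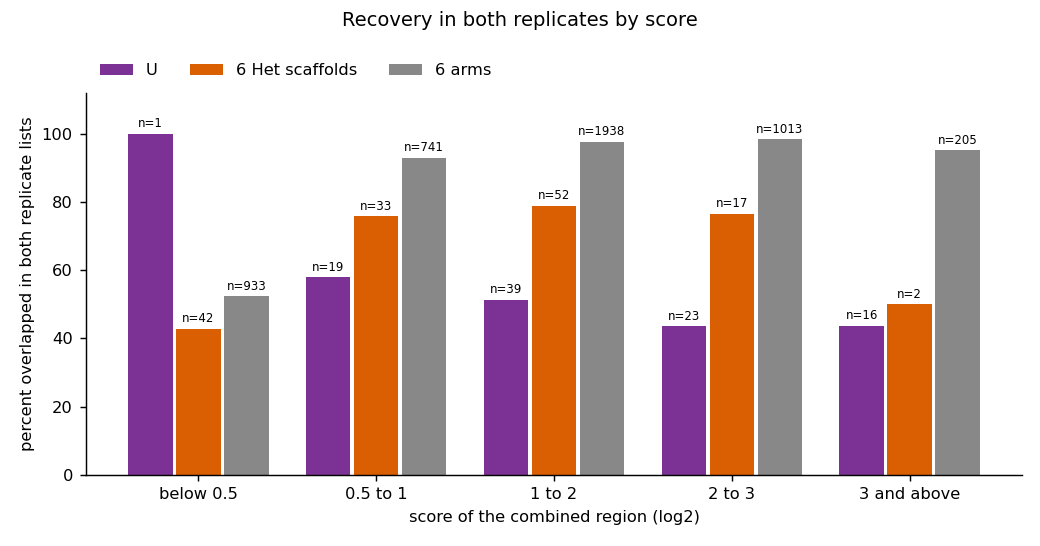
Percent of combined regions overlapped by a region of both replicates (vertical axis) in 5 bands of score (log2, horizontal axis), for U, the Het scaffolds and the arms. The arms stay above 90% from a score of 0.5 upward, while U lies between 43.5% and 57.9% in the bands that hold more than 1 region.

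Width went with recovery in every set. No region below 1.5 kb on the Het scaffolds was in both replicates (0 of 31), nor were more than 1 of 21 on U and 3 of 355 on the arms. At 2.5 kb and above, all 71 regions on heterochromatin and U were in both replicates, namely 53 of 53 below 5 kb and 18 of 18 from 5 kb upward. The arms were nearly the same in these bands, with 1509 of 1529 (98.7%) and 1166 of 1167 (99.9%). At the widths between, 1.5 to 2.5 kb, the sets parted: 42 of 59 regions on the Het scaffolds (71.2%), 33 of 62 on U (53.2%) and 1582 of 1779 on the arms (88.9%) were in both. Within this width band and at a score of at least 1, both replicates held 12 of 17 regions on the Het scaffolds (70.6%), 24 of 49 on U (49.0%) and 750 of 766 on the arms (97.9%). The lower recovery of U was thus at least as large among regions of like width and score.

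A difference between the lists in their smallest width touches these shares. The narrowest region was 1001 bp in the combined list and 1303 bp in the replicate lists. Of the 244 regions, 34 (13.9%) were narrower than 1303 bp, against 252 on the arms (5.22%), and all 34 were in neither replicate. They made up 22 of the 34 unrecovered regions on the Het scaffolds (64.7%), 12 of the 37 on U (32.4%) and 241 of the 384 on the arms (62.8%). Leaving them out raised the share in both replicates to 70.0% over heterochromatin and U. The narrow arm regions were not left out in turn, so this value is not to be set against the 88.2% of all arm regions. Regions at least 1303 bp wide and in neither replicate numbered 37 of the 244, and 143 of the 4830 on the arms.

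Read from the replicate lists, agreement was closer. Of the 166 regions of replicate 1 on these sequences, 153 overlapped a region of replicate 2 (92.2%), and 153 of the 170 regions of replicate 2 overlapped one of replicate 1. On U the shares were 50 of 56 (89.3%) and 51 of 57 (89.5%). On the Het scaffolds they were 103 of 110 (93.6%) and 102 of 113 (90.3%), and on the arms 97.6% and 96.9%. The combined list overlapped 165 of the 166 and 169 of the 170. Regions of U that the other replicate did not overlap were strong, with a median score of 2.54 over 6 regions of replicate 1 and 2.12 over 6 of replicate 2. On the arms such regions had medians of 0.42 and 0.45.

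Where both replicates held a region, their scores were further apart on U. Matched 1 to 1, 49 pairs on U differed by a median of 0.18 in the size of the score difference, 94 pairs on the Het scaffolds by 0.08 and 4182 pairs on the arms by 0.08. A difference of at least 0.5 occurred in 11 of the 49 pairs on U (22.4%), 3 of the 94 on the Het scaffolds (3.19%) and 9 of the 4182 on the arms (0.215%). Across the pairs the scores correlated with Pearson's r of 0.898 on U, 0.966 on the Het scaffolds and 0.989 on the arms, a description over regions that share their libraries. On U the median difference was 0.17 in 24 pairs with a mean score of 1 to 2, 0.32 in 11 pairs of 2 to 3 and 0.53 in 7 pairs of at least 3. On the arms the medians of the same bands were 0.08, 0.07 and 0.08. Pairs 1.5 to 2.5 kb wide gave 0.18 on U and 0.09 on the arms. Neither replicate was the higher throughout, as replicate 1 had the higher score in 56 of all 143 pairs on heterochromatin and U.

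**Figure D4:**
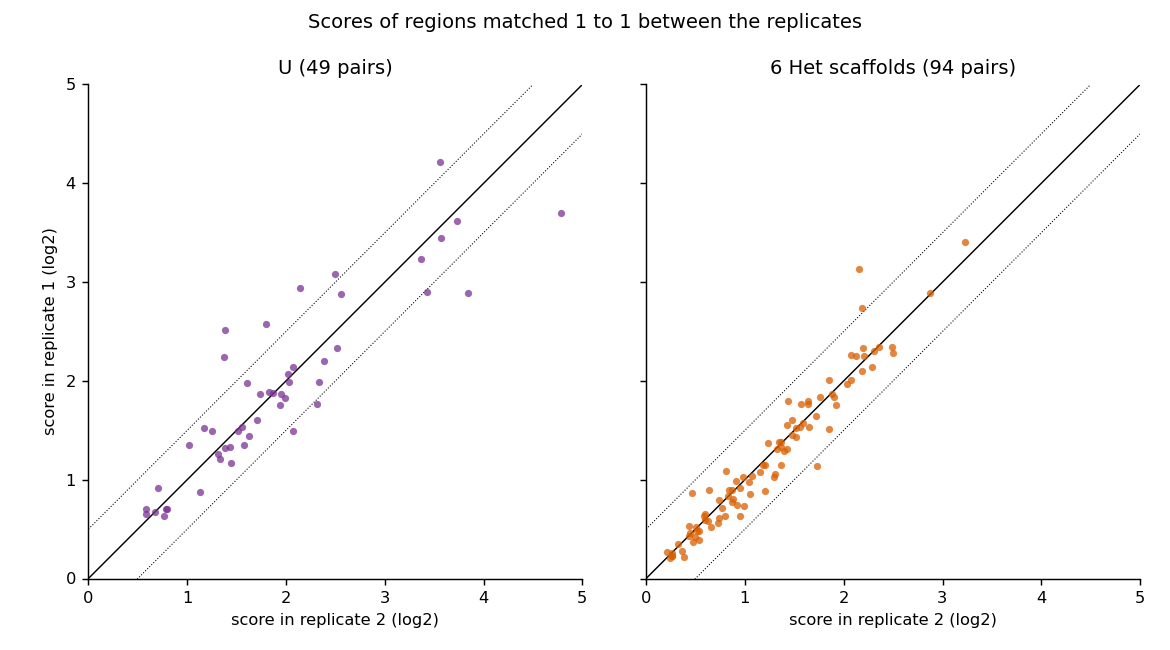
Score in replicate 1 against score in replicate 2 (both log2) for regions matched 1 to 1 on U and on the Het scaffolds. The solid line marks equal scores and dotted lines a difference of 0.5, which 11 of 49 pairs on U and 3 of 94 on the Het scaffolds reached.

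The largest difference belonged to a region of U at 5734561 to 5736564 in replicate 1, which scored 2.52 there and 1.38 in replicate 2. Next came one at 2929348 to 2931430, with 3.70 in replicate 1 and 4.78 in replicate 2. On YHet the region at 304290 to 308121 scored 3.13 in replicate 1 and 2.16 in replicate 2. These 3 pairs went in either direction.

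The 10 highest scores fell almost entirely on U, and 6 of the 11 regions that carried them, the tenth score being tied, were missing from at least 1 replicate list. The highest score of the 244, 4.95, belonged to U 2925754 to 2927758, which is 2005 bp wide and was in neither replicate. Its neighbour 1395 bp further on, U 2929154 to 2931468, scored 4.31 and was in both replicates. Between them in rank stood U 4924810 to 4927096 with a combined score of 4.47, held by replicate 2 alone with 4.75.

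Further down this ranking, regions in both replicates alternated with regions in 1 or none. U 8031868 to 8034530 had a combined score of 3.92, with 4.21 in replicate 1 and 3.55 in replicate 2. U 5540752 to 5543176 had 3.72, with 3.61 and 3.73 in the replicates. U 9514834 to 9517064 had 3.55 and was held by replicate 1 alone, with 3.77. Both replicates held U 9339840 to 9342990, which scored 3.51 in the combined list and 3.45 and 3.57 in the replicates. Neither held U 8318396 to 8320606, which scored 3.43. U 7379286 to 7381488 had 3.37, with 2.89 and 3.84 in replicates 1 and 2. The tenth place was shared by 2RHet 368024 to 369038 and U 9657434 to 9658438, which had exactly the same score of 3.37. They were 1015 and 1005 bp wide and in neither replicate.

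The leading regions of the other large scaffolds were wider and recovered. On 3LHet the top score of 3.29 belonged to 2210308 to 2214326, 4.02 kb wide, with 3.41 and 3.23 in replicates 1 and 2. On 3RHet it was 2.28 at 1703384 to 1707084, 3.70 kb wide, with 2.30 in each replicate.

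Regions on the Het scaffolds stood in runs more often than those on U. A run was defined as at least 3 regions with gaps of at most 10 kb. Runs took in 75 of 146 regions on the Het scaffolds (51.4%), 7 of 98 on U (7.14%) and 3104 of 4830 on the arms (64.3%), against 62.8% of all 5074 regions. Regions with no neighbour within 10 kb made up 33.6% on the Het scaffolds, 70.4% on U and 18.8% on the arms. The gap to the nearest region had a median of 5.02 kb on the Het scaffolds, 26.5 kb on U and 2.52 kb on the arms. These gaps depend on how many regions there are, so they were also set against the mean spacing, the summed length of the sequences divided by their number of regions, into which unequal density between scaffolds enters. As a percent of the mean spacing of regions, the median gap was 7.90% on the Het scaffolds, 25.8% on U and 10.1% on the arms. In the replicate lists the mean percent was 7.69% ± 0.0351 on the Het scaffolds, 22.7% ± 8.50 on U and 10.3% ± 0.251 on the arms (SD, n = 2). The pooled value of the Het scaffolds was thus below the arms in all 3 lists, but this did not hold scaffold by scaffold. 3LHet, with 66 of the 146 regions, had 14.9% in the combined list and 14.6% in each replicate, above the arms, as had 2LHet with 22.2% and 35.0% in each replicate. 2RHet was below the arms in all 3 lists, with 6.86%, and 3.41% and 7.33% in replicates 1 and 2. U was above the arms in both replicates, with 28.7% and 16.7% against 10.1% and 10.4%, but these 2 values of U were themselves far apart.

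Runs were not equally common among scaffolds. 3LHet had 39 of its 66 regions in 11 runs (59.1%) and 2RHet 18 of 42 in 6 runs (42.9%). On XHet 7 of 9 regions formed 1 run, on YHet 5 of 7, on 2LHet 3 of 6 and on 3RHet 3 of 16. The longest run held 7 regions, against 25 on the arms. In replicates 1 and 2 the share of regions in runs was 37.3% and 46.9% on the Het scaffolds, 10.7% and 0% on U, and 63.8% and 63.0% on the arms. All 5 YHet regions of replicate 2 stood in a run and 0 of the 4 of replicate 1, so at a gap of 10 kb the YHet run appeared in 1 replicate. With gaps of at most 5 kb it was no run in any list, and with gaps of at most 20 kb replicate 1 had 3 of its 4 YHet regions in a run. The 2LHet run was a run in the combined list alone, since neither replicate held its first region.

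The distribution along each scaffold was uneven beyond the runs. On 3RHet 8 of the 16 regions lay between 1703384 and 1900052, which is 7.81% of the scaffold, and the longest stretch without a region was 911 kb. In the replicate lists 6 of the 12 regions of 3RHet took 3.13% and 3.14% of the scaffold. On 2RHet 21 of the 42 regions lay in 660 kb from 2582150 to 3242486, which is 20.1% of the sequence, beside an empty stretch of 512 kb elsewhere. In replicates 1 and 2 the longest empty stretch of 2RHet was 1438 and 1437 kb, and the shortest stretch with at least 50% of its regions took 12.8% and 12.6% of the sequence. On 3LHet 33 of the 66 regions took 33.7% of the length, from 1549446 to 2411390. On U the shortest stretch with 49 of the 98 regions took 31.6% of the length. For the arms the shortest stretch that held 50% of the regions took between 41.3% and 47.4% in the combined list. This share tends to be smaller where regions are few, and the arms held between 877 and 1040 regions each, save 4. Arm 4, with 54 regions, took 41.3%, and no arm held as few as 3RHet or 2RHet. Whether reads could be placed in the empty stretches was not measured.

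XHet carried a compact group of regions, some of which nearly touched in the combined list. From 54308 to 86004 it held 7 regions within 31.7 kb, and all 9 lay between 34548 and 86004, which is 25.2% of the scaffold. The strongest, at 56340 to 58828, had a combined score of 2.17, with 2.14 and 2.29 in replicates 1 and 2. It was flanked on one side, 47 bp away, by a weak region at 54308 to 56292 that scored 0.30, and 0.22 and 0.38 in the replicates. On the other side, 33 bp away, stood the region at 58862 to 62704, which scored 1.08, and 1.15 and 1.37 in the replicates. A second pair of the same kind lay further on. The region at 74248 to 78734 scored 1.42, with 1.54 and 1.55 in the replicates, and 97 bp after it a region at 78832 to 80262 scored 0.12 and was held by replicate 2 alone, with 0.34. Gaps were longer in the replicate lists: an XHet region had its nearest neighbour at a median of 4.55 kb in replicate 1 and 1.22 kb in replicate 2, whereas the combined list gave 0.097 kb.

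The other XHet regions were weak. The region at 34548 to 36586 had a combined score of 0.56, with 0.59 and 0.62 in the replicates. That at 84452 to 86004 had 0.34, with 0.53 and 0.43. At 67256 to 68872 the score was 0.16, and replicate 1 alone held it, with 0.27. The narrow region at 40176 to 41180, of 1005 bp, scored 0.95 and was in neither replicate.

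YHet carried 7 regions although the labels give the cells as female. Of these, 5 formed a run from 295066 to 329328, over 34.3 kb near the end of the scaffold. Its strongest region, at 304272 to 308118, had a combined score of 2.57, with 3.13 and 2.16 in replicates 1 and 2. The first region of the run, at 295066 to 297980, scored 1.38, with 1.31 and 1.42 in replicates 1 and 2. The region at 319962 to 322188 scored 1.70, with 1.80 and 1.64. These 3 were the YHet regions in both replicates. The other 2 regions of the run, at 312770 to 314764 and 327174 to 329328, had combined scores of 1.04 and 1.45 and were held by replicate 2 alone, with 1.71 and 1.70. Outside the run, the region at 153464 to 155304 scored 2.06 and was held by replicate 1 alone, with 2.19. The region at 23902 to 25352 scored 1.33, exactly the score of 2 other regions of the list, and was in neither replicate. Whether the reads behind the YHet regions came from like sequence on other chromosomes was not tested.

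2LHet held 6 regions, and both replicates held 5 of them with close scores. The strongest, at 197868 to 200370, had a combined score of 2.27, with 2.34 and 2.19 in replicates 1 and 2. The region at 166764 to 172114 had 1.87, with 1.86 and 1.89, and that at 123138 to 125522 had 1.16, with 1.03 and 1.29. The other 3 formed a run within 12.7 kb. In it, the widest region of 2LHet, at 30344 to 36828 and 6.49 kb wide, scored 1.45, with 1.45 and 1.48 in the replicates. It was followed by a region at 37576 to 39626 with 0.44, and 0.42 and 0.50 in the replicates. It was preceded by one at 26952 to 28772 with 0.36, which was in neither replicate.

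The 1 run of 5 regions on 3LHet spanned 24.1 kb from 1115630 to 1139688. It ended in the strongest and widest of its regions, at 1129272 to 1139688, 10.4 kb wide, which scored 1.55 in the combined list and 1.84 and 1.76 in the replicates. It began with the region at 1115630 to 1117896, which scored 0.81, with 0.90 and 0.84 in replicates 1 and 2. Of its 5 regions, 4 were in both replicates.

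Exact ties of score were concentrated on heterochromatin and U. In the combined list 48 of the 244 regions (19.7%) had a score that another region of the list shared to within 1e-10, against 136 of 4830 on the arms (2.82%) and 3.63% of all 5074 regions. These 48 regions made up 26.1% of the tied regions, although the 244 are 4.81% of the list. They held 32 distinct scores, and 28 of the 48 were tied with another of the 244. On U 32 of 98 regions were tied (32.7%), and on the Het scaffolds 16 of 146 (11.0%).

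The replicate lists had fewer such ties on heterochromatin and U, and still more than on the arms. The tied share there was 12.7% in replicate 1 and 11.2% in replicate 2, a mean of 11.9% ± 1.04 (SD, n = 2). On the arms it was 3.59% and 3.20%, a mean of 3.40% ± 0.273 (SD, n = 2). U alone varied between the replicates, with 23.2% of its regions tied in replicate 1 and 10.5% in replicate 2, and the Het scaffolds had 7.27% and 11.5%. The order of U and the Het scaffolds was therefore not the same in both replicates.

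In the combined list tied regions were narrower and higher in score than untied ones and mostly missing from the replicate lists. The 48 tied regions had a median score of 1.79 and a median width of 1.45 kb, and the 196 untied ones 1.15 and 2.22 kb. On U, which held 32 of the 48, the tied and untied median scores were close, at 1.83 and 1.78. They were 1.46 and 0.93 on the Het scaffolds, and on the arms tied regions scored lower, at 0.78 against 1.39. Both replicates held 10 of the 48 (20.8%) and neither held 34 (70.8%). On the arms both held 51 of 136 tied regions (37.5%) and neither held 76 (55.9%). Over all 184 tied regions of the list, neither held 59.8%. Tied arm regions were narrow too, with a median of 1.36 kb against 2.84 kb for untied ones. Of the 196 untied regions both replicates held 137 (69.9%). Within the replicate lists the difference in score was not shared, as tied regions had a median of 1.77 against 1.32 for untied ones in replicate 1 and 1.38 against 1.43 in replicate 2. Their median widths there were 1.99 and 1.97 kb, against 2.20 and 2.29 kb.

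Ties went with narrow width on every kind of sequence in the combined list: below 1.5 kb, 71.4% of the U regions, 35.5% of the Het regions and 21.4% of the arm regions were tied. At 1.5 to 2.5 kb the shares were 25.8% on U, 8.47% on the Het scaffolds and 2.25% on the arms. On U this order was not found in the replicate lists, where 1 of 5 regions below 1.5 kb and 11 of 44 at 1.5 to 2.5 kb were tied in replicate 1, and 0 of 5 and 6 of 45 in replicate 2. On the Het scaffolds it was, with 2 of 9 (22.2%) and 6 of 53 (11.3%) in replicate 1. Replicate 2 had 3 of 11 (27.3%) and 9 of 53 (17.0%) there. The order thus rests on few regions below 1.5 kb. U was above the arms at 1.5 to 2.5 kb in all 3 lists, where the arms had 5.51% and 4.63% in the replicates.

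**Figure D5:**
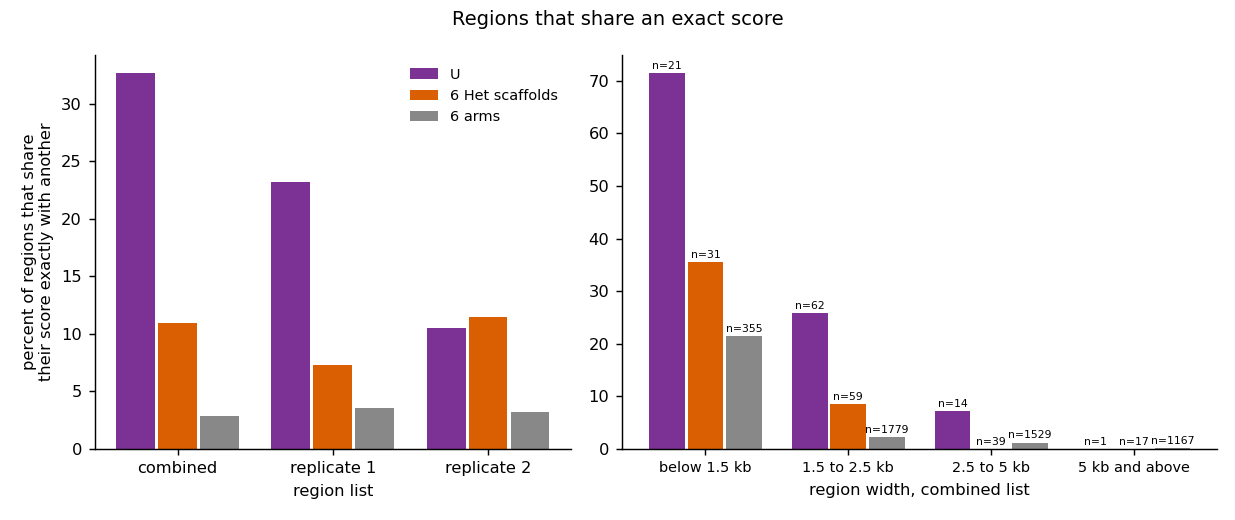
Percent of combined regions that share their exact score with another region (vertical axis), for U, the Het scaffolds and the arms, by region list on the left and by width band (kb) of the combined list on the right. U leads in the combined list and replicate 1 and not in replicate 2, and on the right the bars fall from 71.4%, 35.5% and 21.4% below 1.5 kb to 25.8%, 8.47% and 2.25% at 1.5 to 2.5 kb.

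The groups of tied regions joined sequences that are not neighbours. A score of 2.48 was given to 6 regions, of which 4 were at 2RHet 1776562 to 1777562, 3LHet 670634 to 671688, U 3186056 to 3187246 and U 9085286 to 9086482. These 4 were between 1001 and 1197 bp wide and in neither replicate. A score of 3.11 was given to 7 regions, of which 3 were on U, at 3822380 to 3823380, 5527704 to 5528704 and 9017464 to 9018464. Each of the 3 was 1001 bp wide, the smallest width in the list, and none of the 7 was in a replicate list. A score of 1.59 was given to 5 regions, of which 3 were at 2RHet 3241308 to 3242486, U 6522656 to 6524664 and U 8002984 to 8004634. Of these, U 6522656 to 6524664 was in both replicates, with scores of 1.54 and 1.55, and the other 2 were in neither. The largest tie that included any of the 244 regions joined 8 regions at 0.78, of which 1 was on U.

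Few of the tied regions could be followed into the replicates. Of the 48 tied regions, 12 had 1 region in replicate 1, and 2 of these were tied there. Another count of 12, not all the same regions, had 1 region in replicate 2, and 4 of these were tied there. Of all regions on these sequences, 12.7% and 11.2% were tied in those lists. The 1 pair of such regions tied with each other in the combined list, at U 815962 to 818392 and U 7338248 to 7340882 with a score of 1.80, was tied in 0 replicate lists. The first scored 1.5 and 2.08 in replicates 1 and 2, and the second 2.07 and 2.02. Beyond equal scores, a score exactly 1 above or below that of another region occurred in 30 of 98 regions on U (30.6%), 12 of 146 on the Het scaffolds (8.22%) and 126 of 4830 on the arms (2.61%). On U it occurred in 33.9% of the regions of replicate 1 and 17.5% of those of replicate 2. What sets the values that a score can take was not tested.

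The parts of the arms that face the centromere were set beside these sequences, in a comparison added after the values were seen. How much of these arm ends is itself heterochromatin was not measured. The last 1 Mb on the centromeric side of 2L, 2R, 3L, 3R and X held 35.2 regions per Mb, with a median score of 1.23 and a median width of 2.61 kb, and both replicates held 84.1% of the regions. Of these regions 48.9% stood in runs and 3.98% were tied. In density, width, recovery and ties the arm ends thus lay nearer to the whole arms, at 40.1 per Mb, 2.78 kb, 88.2% and 2.82%, than to heterochromatin and U, at 12.6 per Mb, 2.08 kb, 60.2% and 19.7%. For score and runs the pooled values of heterochromatin and U, 1.33 and 33.6%, join unlike parts. The median score of the arm ends lay between the 0.96 of the Het scaffolds and the 1.37 of the arms, and below the 1.80 of U. Their share in runs was near the 51.4% of the Het scaffolds, below the 64.3% of the arms and far above the 7.14% of U. In replicates 1 and 2 it was 47.8% and 46.3%, beside 37.3% and 46.9% on the Het scaffolds.

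No region typed as depleted, which has a score below 0, lay on heterochromatin or U in any of the 3 lists. Depleted regions were few on the arms as well, with 67 beside 4830 enriched regions in the combined list. Replicates 1 and 2 held 17 and 16 there, beside 4708 and 4652 enriched ones. With only 244, 166 and 170 enriched regions on heterochromatin and U, the absence of depleted ones is not read as a difference from the arms.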

How the data were processed

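The authors deposited 1 list of regions per ChIP replicate and 1 for the replicate set, each with a position, a type and a score whose scale is not named. The deposited score was read as log2, since it takes both signs and many scores differ by exactly 1. The submitters' processing notes name Bowtie 0.12.7, and per the file headers positions are of FlyBase release 5. How regions were called, with which threshold and control, and how replicates were combined is not given in the sources used. Depth is unknown, so no interval that needs counts is given.

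Widths, gaps, runs (at least 3 regions, gaps of at most 10 kb), overlaps (at least 1 bp) and exact ties (tolerance 1e-10) were computed with pandas 2.3.3 and numpy 2.4.6 under Python 3.11.15, correlations with scipy 1.17.1 and figures with matplotlib 3.10.9. The steps were tested on simulated data. Means and SDs are over the 2 replicate lists. Regions named are the 10 highest scores, all of XHet, YHet and 2LHet, and the strongest and widest of each other scaffold. Named as well are the ends and top of runs of at least 5, and the 3 groups of ties with the most of the 244 regions. The regions and lists were chosen with earlier results of these data known. Alternatives were each replicate list, regions in both replicates, other gap limits, overlap of 50%, scores of at least 1, rounded scores, omission of U and inclusion of depleted regions.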

Additional observations from a re-analysis of the deposited data

How the results depend on the processing

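Counts of 244, 166 and 170 regions in the combined list and replicates 1 and 2 stayed within 1.5 times of each other. On U alone, the counts of 98, 56 and 57 did not. In place of 12.6 regions per Mb, the list of replicate 1 gave 8.59, that of replicate 2 gave 8.79, regions in both replicates gave 7.60 and omission of U gave 15.7. The median score of 1.33 became 1.39 in replicate 2 and 0.96 without U. The median width of 2.08 kb became 2.16 and 2.21 kb in replicates 1 and 2, 2.47 kb for regions in both and 2.21 kb without U. The tied share of 19.7% became 12.7% and 11.2% in the replicates, 11.0% without U and 97.5% with scores rounded to 2 decimals. For regions in both replicates it became 2.72% when ties were counted anew among such regions alone. By the ties of the full list, 10 of these 147 regions were tied. The share in runs of 33.6% became 28.3% and 31.2% in the replicates, 51.4% without U, 14.8% with gaps of at most 5 kb and 44.3% with gaps of at most 20 kb. It became 19.0% for regions in both replicates, with runs likewise drawn anew after the other regions were removed. The share in both replicates of 60.2% became 67.1% without U and 70.0% among regions at least as wide as the narrowest replicate region. These last 2 alternatives, the replicate counts and the arm ends were chosen after seeing the data. The cause was not tested.

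Over the lists that leave out 1 replicate, regions per Mb ranged from 8.59 to 8.79, the median score from 1.36 to 1.39, the median width from 2.16 to 2.21 kb, the tied share from 11.2% to 12.7% and the share in runs from 28.3% to 31.2%. The share found in 1 given replicate ranged from 64.8% to 66.4%. No paired analysis was possible because the input libraries have no region list here and the results come from no test. The replicate score difference needs both replicates, so leaving 1 out gives no value. Depth is unknown and sets no limit that can be stated.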
